A study of Mus musculus and Homo sapiens with 32 samples.

Results

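The drug response of obstructed kidneys was compared between 2 Pcmt1 genotypes. For each gene, the change with LY2109761 in fl/fl mice was subtracted from the change with LY2109761 in tKO mice, so a positive difference means that the gene responded more upward, or less downward, in tKO. The comparison used 12 of the 32 samples of the series, chosen by their labels: Pcmt1 tKO kidneys after unilateral ureteral obstruction (UUO) with LY2109761, Pcmt1 tKO kidneys after UUO with DMSO, Pcmt1 fl/fl kidneys after UUO with LY2109761, and Pcmt1 fl/fl kidneys after UUO with DMSO, with 3 libraries in each group. All 12 libraries came from obstructed mouse kidneys, and DMSO is the vehicle. The 12 libraries belong to an obstruction experiment of 18 samples, whose sham groups took no part in the difference. The labels do not spell out tKO, name the cell type in which Pcmt1 was deleted, give the age of the mice or the dose and timing of LY2109761, or say whether replicates came from separate animals, so a p-value here measures the spread among these libraries alone, and that spread may be technical.

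UUO ties off a ureter, and the blocked kidney loses tubular epithelium and fills with matrix, a standard model of renal fibrosis. TGF-β ligands bind a pair of serine/threonine kinase receptors, TGFBR2 and TGFBR1, which phosphorylate Smad2 and Smad3. These join Smad4 in the nucleus and switch on matrix genes, while Smad7 feeds back on the receptors. LY2109761 inhibits both receptor kinases. Pcmt1 encodes a methyltransferase that repairs isoaspartyl residues in ageing proteins.

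Library depth was 13015669 to 19340017 counts, and of 57180 genes listed 18971 passed the filter on low counts and were tested. Levels are given as CPM, counts scaled to the TMM-adjusted size of the library. Pcmt1 (ENSMUSG00000019795, at 7629373 to 7681136 on GRCm38 chromosome 10) had 28.4, 34.4 and 34 CPM in tKO kidneys given LY2109761, against 32.4, 30.8 and 32 CPM in tKO kidneys given DMSO. In fl/fl kidneys Pcmt1 had 38.3, 31.6 and 47.9 CPM with LY2109761, against 51.3, 43.8 and 50.1 CPM with DMSO. Every fl/fl library given DMSO was above every tKO library, and fl/fl libraries given LY2109761 reached down to 31.6 CPM, inside the tKO range. The Pcmt1 response differed by 0.33 (SE 0.21, edgeR adjusted p = 0.316) and did not pass the threshold of 0.05 on the adjusted p. Kidney markers were present in all 12 libraries. The tubular glycoprotein gene Umod had 690.1 CPM or more, and the podocyte gene Nphs1 18.2 CPM or more. The 13 protein genes of the mitochondrial genome took a share of counts of 12.2%, 18.6% and 15.7% in tKO kidneys given LY2109761, 9.79%, 10.5% and 16% in tKO kidneys given DMSO, 12.5%, 16.2% and 12% in fl/fl kidneys given LY2109761, and 7.59%, 7.37% and 7.36% in fl/fl kidneys given DMSO. The difference of its responses was −2.7 percentage points (exact permutation test, two-sided, p = 0.545, 400 arrangements). That test assumes no drug effect in either genotype. In fl/fl kidneys every library given LY2109761 was above every library given DMSO, so this p does not test equal responses.

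The response to LY2109761 differed between the genotypes in 3142 of 18971 genes (16.6%) by edgeR's quasi-likelihood test with Benjamini-Hochberg adjustment. The difference was positive in 1599 genes (8.43%), written as higher below, and negative in 1543 (8.13%), written as lower. In most of them both genotypes contributed, with opposite signs. Of the genes called higher, 1592 had a response above 0 in tKO and below 0 in fl/fl, and of those called lower 1523 had the reverse, although choosing genes by the difference favours opposite signs. Over all 18971 genes, where nothing was chosen, the responses had opposite signs in 68.7%, and the tKO and fl/fl responses share no library. Genes are not independent of each other, so this share rests on 3 libraries a group, and it was not tested. The median difference over all genes was −0.04 on the log2 scale.

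The single responses passed the threshold far less often than their difference in the same fit. edgeR called 4 genes in tKO (0.0211%, 3778 at an unadjusted p under 0.05, 1113 by DESeq2) and 1249 in fl/fl (6.58%, 4818 at an unadjusted p under 0.05, 2436 by DESeq2), and 2025 genes with a called difference had neither response called. All 4 genes called in tKO also had a called difference and are named here for that, after their values were seen. They are Eeig2 (difference −5.70), the glycogen synthase gene Gys1 (2.12), the 14-3-3 protein gene Ywhaq (−1.75) and the chloride exchanger gene Clcn3 (2.32). The pattern of group means was lopsided in part. fl/fl kidneys given DMSO had the highest mean in 1293 of the 1599 genes called higher (80.9%, against 28.8% of all genes). They had the lowest in 934 of the 1543 called lower (60.5%, against 31.8%). tKO kidneys given DMSO had the lowest mean in 1103 of the genes called higher (24.7% of all genes). They had the highest in 773 of those called lower (28.8% of all genes), and fl/fl kidneys given LY2109761 in 768. tKO kidneys given LY2109761 had the highest mean in 304 of the genes called higher and the lowest in 609 of those called lower. Choosing genes by the difference favours such extremes. The genotypes, set side by side, differed in 505 genes with LY2109761 (2.66%) and in 4036 genes with DMSO (21.3%).

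The counts depended on single libraries. Calls higher went to 785 without fl/fl DMSO replicate 1, 986 without tKO DMSO replicate 2, 1001 without fl/fl LY2109761 replicate 3 and 1044 without tKO LY2109761 replicate 3. Calls lower went to 653 without fl/fl LY2109761 replicate 3, 706 without tKO LY2109761 replicate 3, 709 without fl/fl DMSO replicate 1, 758 without tKO LY2109761 replicate 2, 802 without fl/fl LY2109761 replicate 1, 876 without tKO DMSO replicate 2 and 922 without tKO DMSO replicate 3. None of the 3142 genes changed sign under any other setting in which it had a value, although choosing them by their difference favours this. The fl/fl response calls went to 9, 12, 29 and 48 without fl/fl LY2109761 replicate 3, fl/fl DMSO replicate 1, fl/fl LY2109761 replicate 1 and fl/fl DMSO replicate 2, and to 827 and 824 without tKO LY2109761 replicate 2 and tKO DMSO replicate 1. The tKO calls went to 436 without tKO LY2109761 replicate 1 and to between 2 and 14 without any other single library.

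**Figure D1:**
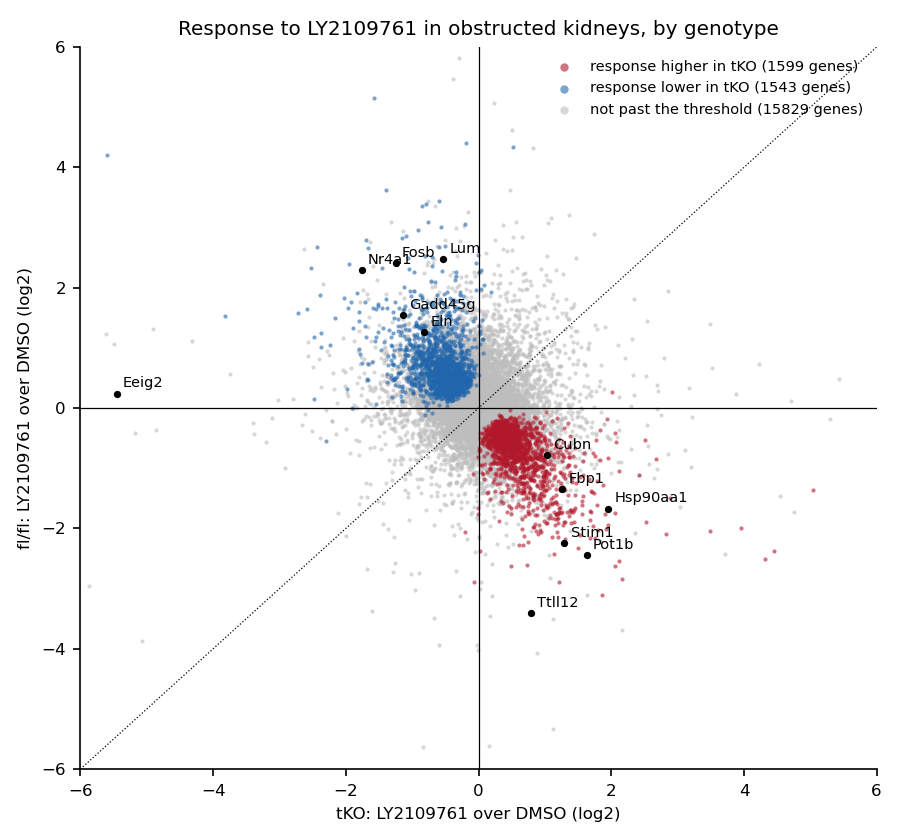
Change with LY2109761 over DMSO on the log2 scale in tKO kidneys (x axis) and fl/fl kidneys (y axis), 1 point a gene. Red points are the 1599 genes called higher and blue points the 1543 called lower, grey points did not pass, the dotted line marks equal responses, and 14 genes lie beyond 6 on either axis. Called genes fill the 2 quadrants in which the genotypes responded in opposite directions, and Eeig2 lies at −5.46 in tKO and 0.24 in fl/fl.

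The gene lists from here on were chosen with earlier results of these data known. Their counts beside the share over all genes are therefore descriptions and not tests of a list. The TGF-β pathway itself held 1 call. Of 27 ligands, activators, receptors and Smads tested, 1 was called higher (8.43% of all genes) and 0 lower (8.13%) by edgeR (4 and 2 at an unadjusted p under 0.05, 3 and 1 by DESeq2), with a median difference of 0.09 (−0.15 to 0.24 with 1 library left out). The gene called was Itgav (ENSMUSG00000027087, at 83724397 to 83806916 on GRCm38 chromosome 2), the integrin αV chain, which releases TGF-β from its latent complex. Itgav had 14.8, 12.6 and 22.9 CPM in tKO kidneys given LY2109761, against 17, 8.70 and 11.2 CPM in tKO kidneys given DMSO. In fl/fl kidneys Itgav had 9.63, 12.6 and 23.4 CPM with LY2109761, against 41.3, 43.7 and 30.7 CPM with DMSO. It was high in all 3 fl/fl libraries given DMSO, and its 2 tKO groups overlapped. The response was 0.44 in tKO and −1.34 in fl/fl, a difference of 1.78 (SE 0.51, edgeR adjusted p = 0.0366). The call was kept without tKO LY2109761 replicate 1 or 2, tKO DMSO replicate 1, fl/fl LY2109761 replicate 4 or fl/fl DMSO replicate 3 and lost without any other single library (adjusted p of edgeR up to 0.0808), and 0 to 3 genes of the list were called higher over the 12 fits with a library left out. The ligand gene Tgfb1 responded by −0.38 in tKO and −0.33 in fl/fl, and Tgfb2 by −0.09 in tKO and −0.28 in fl/fl. The type II receptor gene Tgfbr2 had 169.5, 253 and 230 CPM in tKO kidneys given LY2109761, against 212, 189.9 and 175 CPM in tKO kidneys given DMSO. In fl/fl kidneys Tgfbr2 had 149.5, 151 and 183 CPM with LY2109761, against 238, 206 and 217 CPM with DMSO. The fl/fl groups of Tgfbr2 did not overlap while the tKO groups did, and the difference of 0.63 (SE 0.22, edgeR adjusted p = 0.0688) did not pass. The type I receptor gene Tgfbr1 was too uneven to judge: it had 90.6, 83.8 and 43.1 CPM in tKO kidneys given LY2109761, against 119.8, 108 and 7.93 CPM in tKO kidneys given DMSO. In fl/fl kidneys Tgfbr1 had 103, 7.38 and 124 CPM with LY2109761, against 90.9, 90.1 and 89.9 CPM with DMSO, and 1 library in each of 2 groups stood far below its replicates. The differences of the effector genes Smad2 (0.92), Smad3 (−0.13) and Smad4 (0.33) and of the feedback gene Smad7 (0.48) did not pass (edgeR adjusted p from 0.252 to 0.73).

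Downstream, 7 of 25 direct TGF-β target genes were called lower (8.13% of all genes) and 0 higher (8.43%) by edgeR (7 and 1 at an unadjusted p under 0.05, 7 and 1 by DESeq2), with a median of −0.38. That median was −0.62 to −0.18 with 1 library left out, −0.18 with GC offsets and −0.0081 without pseudogenes and overlapping loci. Id3 (ENSMUSG00000007872, at 136143497 to 136145755 on GRCm38 chromosome 4), an inhibitor of helix-loop-helix factors, had 176, 138 and 131 CPM in tKO kidneys given LY2109761, against 199.5, 248 and 189.6 CPM in tKO kidneys given DMSO. Id3 in fl/fl kidneys had 282, 263 and 328 CPM with LY2109761, against 212, 146 and 186 CPM with DMSO. Neither pair of groups overlapped, and the responses had opposite signs, −0.52 in tKO and 0.68 in fl/fl. The difference was −1.20 (SE 0.24, edgeR adjusted p = 0.0116). The others among the 7 were Id1, Junb, Col1a1, Col1a2, Col3a1 and the fibronectin gene Fn1. Col1a1 and Col1a2 are also members of the matrix list below, so these lists are not separate. Ccn2, which encodes CTGF, differed by −0.67 (SE 0.37, edgeR adjusted p = 0.229) and did not pass. The 7 fell to 3 without tKO LY2109761 replicate 2 or 3, tKO DMSO replicate 2, or fl/fl LY2109761 replicate 3 or 4, and to 4 without tKO DMSO replicate 3 or fl/fl DMSO replicate 1. The call of Fn1 (−0.78 (SE 0.20, edgeR adjusted p = 0.0271)) was kept without tKO LY2109761 replicate 1, tKO DMSO replicate 1 or 3, fl/fl LY2109761 replicate 1 or fl/fl DMSO replicate 3 and lost without any other single library (adjusted p of edgeR up to 0.0777).

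The matrix genes that passed all had a lower response to LY2109761 in tKO than in fl/fl kidneys. Of 29 genes of fibrillar collagen and matrix 11 were called lower (8.13% of all genes) and 0 higher (8.43%) by edgeR (22 and 0 at an unadjusted p under 0.05, 14 and 0 by DESeq2). Of the 29, 27 were below 0, and the median was −0.92 against −0.04 over all genes. Col1a2 (ENSMUSG00000029661, at 4504814 to 4541544 on GRCm38 chromosome 6), a chain of type I collagen, had 804, 577 and 656 CPM in tKO kidneys given LY2109761, against 844, 986 and 1112 CPM in tKO kidneys given DMSO. Col1a2 in fl/fl kidneys had 678, 710.1 and 542 CPM with LY2109761, against 387, 507 and 373 CPM with DMSO. The tKO groups did not overlap, nor did the fl/fl groups, and tKO kidneys given DMSO were the highest of all. The response was −0.53 in tKO and 0.61 in fl/fl, a difference of −1.14 (SE 0.25, edgeR adjusted p = 0.0151). Col3a1 (ENSMUSG00000026043, at 45311538 to 45349706 on GRCm38 chromosome 1), the type III collagen gene, had 792, 550.1 and 574 CPM in tKO kidneys given LY2109761, against 870.3, 881 and 1781 CPM in tKO kidneys given DMSO. Col3a1 in fl/fl kidneys had 792, 797 and 666 CPM with LY2109761, against 338, 444 and 479.6 CPM with DMSO. It was likewise highest in the 3 libraries of tKO kidneys given DMSO, replicate 3 far above the rest, and lowest in the 3 libraries of fl/fl kidneys given DMSO, and differed by −1.72 (SE 0.38, edgeR adjusted p = 0.016). Eln (ENSMUSG00000029675, at 134702593 to 134747323 on GRCm38 chromosome 5), which encodes elastin, had 51.8, 35.4 and 41.5 CPM in tKO kidneys given LY2109761, against 74.4, 95.5 and 58.1 CPM in tKO kidneys given DMSO. Eln in fl/fl kidneys had 59, 70.6 and 47.4 CPM with LY2109761, against 25.7, 19.8 and 28.5 CPM with DMSO. Again neither pair overlapped, and the difference was −2.08 (SE 0.32, edgeR adjusted p = 0.0061). Lum (ENSMUSG00000036446, at 97565128 to 97572703 on GRCm38 chromosome 10), which encodes the collagen-binding proteoglycan lumican, had 4.05, 4.19 and 4.36 CPM in tKO kidneys given LY2109761, against 7.14, 3.98 and 7.09 CPM in tKO kidneys given DMSO. Lum in fl/fl kidneys had 22.6, 27.2 and 11.4 CPM with LY2109761, against 3.36, 3.31 and 4.36 CPM with DMSO. Most of that difference, −3.00 (SE 0.45, edgeR adjusted p = 0.0061), came from the fl/fl side, where LY2109761 went with levels above every other group, and the tKO groups overlapped. Fbln1, which encodes fibulin-1, differed by −1.13 (SE 0.24, edgeR adjusted p = 0.0129). Col1a1 differed by −1.19 (SE 0.35, edgeR adjusted p = 0.0409), a call kept without tKO LY2109761 replicate 1, tKO DMSO replicate 1 or fl/fl DMSO replicate 2 and lost without any other single library (adjusted p of edgeR up to 0.101) or with GC offsets.

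The summed level of the 29 matrix genes was 4428 to 5746 CPM in tKO kidneys given LY2109761, 6371 to 8671 in tKO kidneys given DMSO, 4771 to 4982 in fl/fl kidneys given LY2109761 and 3771 to 4070 in fl/fl kidneys given DMSO. It was highest in all 3 libraries of tKO kidneys given DMSO and lowest in all 3 libraries of fl/fl kidneys given DMSO, and the kidneys given LY2109761 lay between. In bulk tissue, fewer cells of a type and less RNA per cell cannot be told apart. The count of 11 went to 6 without tKO LY2109761 replicate 2 or 3, and to 7 without fl/fl LY2109761 replicate 1 or 3 or fl/fl DMSO replicate 1, with a median from −1.05 to −0.67.

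Genes of myofibroblasts and pericytes, the cells that lay down this matrix, went the same way: 7 of 20 were called lower (8.13% of all genes) and 0 higher (8.43%) by edgeR (10 and 0 at an unadjusted p under 0.05, 9 and 0 by DESeq2), with a median of −0.83. Des (ENSMUSG00000026208, at 75360329 to 75368579 on GRCm38 chromosome 1), the muscle intermediate filament desmin, had 39.4, 43.2 and 37.9 CPM in tKO kidneys given LY2109761, against 66.1, 72.1 and 61.3 CPM in tKO kidneys given DMSO. Des in fl/fl kidneys had 43.3, 57.5 and 39 CPM with LY2109761, against 40.2, 39.7 and 38.9 CPM with DMSO. The tKO groups were apart and the fl/fl groups overlapped, with a difference of −0.96 (SE 0.20, edgeR adjusted p = 0.0126). Vim, which encodes vimentin, differed by −1.24 (SE 0.26, edgeR adjusted p = 0.0131), and Dpt, which encodes the matrix protein dermatopontin, by −2.33 (SE 0.50, edgeR adjusted p = 0.0145). Foxd1, a transcription factor gene of the stromal lineage, differed by −1.59 (SE 0.44, edgeR adjusted p = 0.0344), a call kept without tKO LY2109761 replicate 1, tKO DMSO replicate 3, fl/fl LY2109761 replicate 4 or fl/fl DMSO replicate 2 or 3 and lost without any other single library (adjusted p of edgeR up to 0.088). The contractile genes Acta2 (−0.69) and Tagln (−0.53) did not pass (edgeR adjusted p = 0.382 and 0.289). The 7 fell to 3 without tKO LY2109761 replicate 2 or 3, fl/fl LY2109761 replicate 1 or 3 or fl/fl DMSO replicate 1, and to 4 without any 1 tKO DMSO library or fl/fl DMSO replicate 3. Markers of tissues around the kidney are given beside these lists, and their part in them was not tested. Of 6 adipose genes tested 1 was called lower and 0 higher, a share near the 16.6% called over all genes. It was the fatty acid carrier gene Fabp4 (−1.74 (SE 0.34, edgeR adjusted p = 0.0106)). The list median was −1.51, and the summed level of 9 genes was 373 to 604 CPM in tKO kidneys given LY2109761, 468 to 589 in tKO kidneys given DMSO, 267 to 602 in fl/fl kidneys given LY2109761 and 254 to 291 in fl/fl kidneys given DMSO, with up to 2 members at 0 in a library. The adipocyte hormone gene Adipoq had 0.174, 0.303 and 0.330 CPM in tKO kidneys given LY2109761, against 0.557, 0.215 and 0.112 CPM in tKO kidneys given DMSO. Adipoq in fl/fl kidneys had 5.07, 7.54 and 0.119 CPM with LY2109761, against 0.479, 0.361 and 0.463 CPM with DMSO, so 2 libraries stood above the other 10. Without fl/fl LY2109761 replicate 4, 3 adipose genes were called lower. Of 9 urothelium genes 0 were called (2 lower at an unadjusted p under 0.05, 1 lower by DESeq2), with a median of −0.76 (−1.28 to −0.25 with 1 library left out) and a summed level of 234 to 520.5 CPM in tKO kidneys given LY2109761, 126 to 365 in tKO kidneys given DMSO, 355 to 838 in fl/fl kidneys given LY2109761 and 76.6 to 232 in fl/fl kidneys given DMSO.

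**Figure D2:**
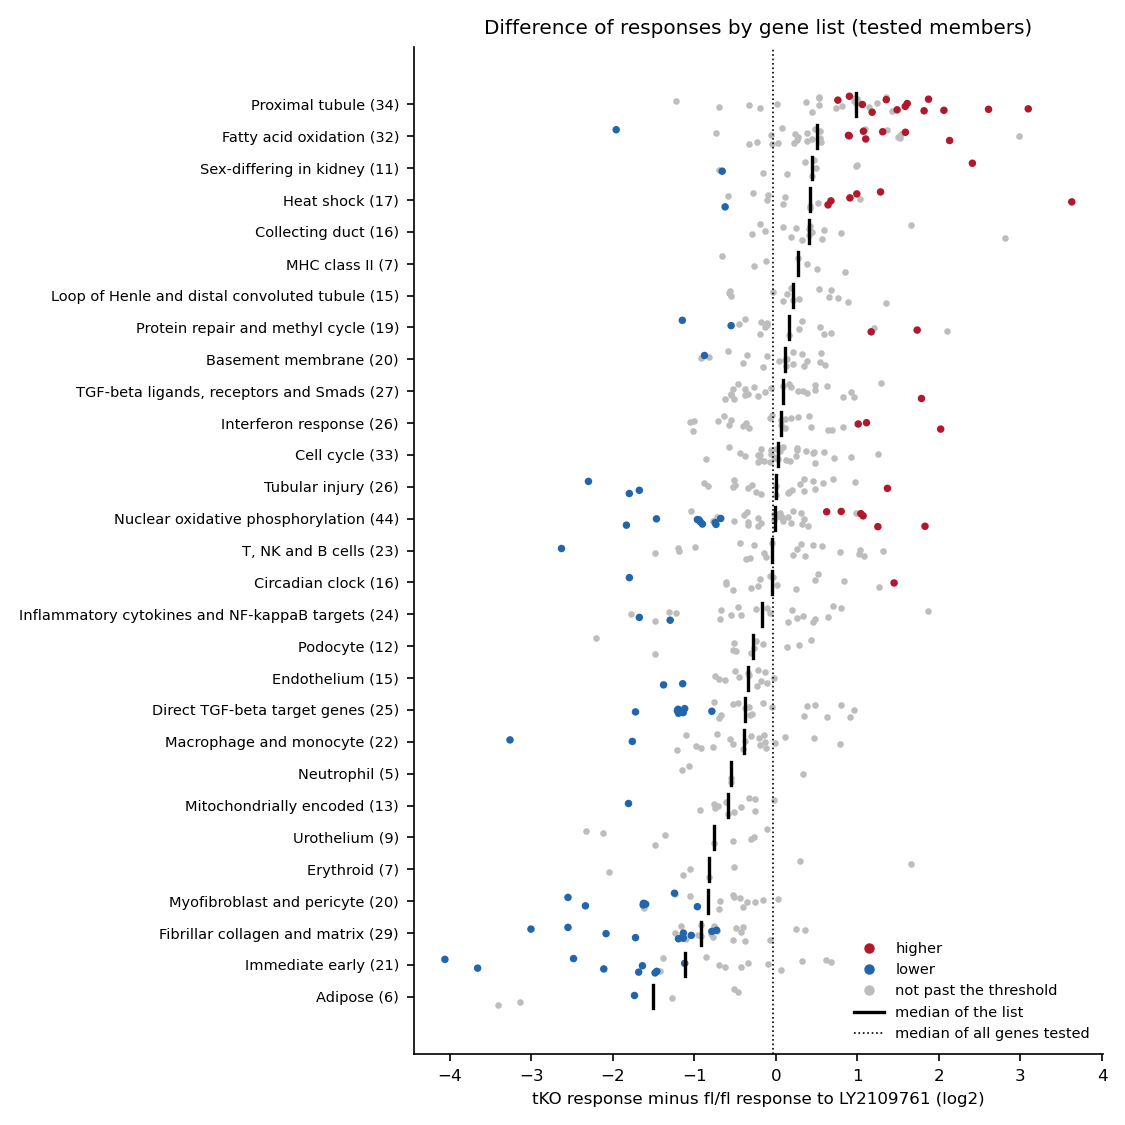
Difference between the tKO and fl/fl responses to LY2109761 on the log2 scale (x axis) for every tested member of 29 gene lists, 1 point a gene, with the number tested in parentheses. Red and blue points passed the threshold, black bars are list medians and the dotted line is the median of all genes, −0.04. Proximal tubule genes lie furthest to the right by median (0.99), and adipose (−1.51), immediate early (−1.12), matrix (−0.92) and myofibroblast genes (−0.83) lie to the left.

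Proximal tubule genes serve the segment that reabsorbs most of the filtrate, and those that passed all had a higher response to LY2109761 in tKO than in fl/fl kidneys. Of 34 tested, 13 were called higher (8.43% of all genes) and 0 lower (8.13%) by edgeR (18 and 0 at an unadjusted p under 0.05, 16 and 0 by DESeq2), and the median was 0.99. The summed level of the list was 11640 to 18160 CPM in tKO kidneys given LY2109761, 9873 to 12820 in tKO kidneys given DMSO, 13820 to 19560 in fl/fl kidneys given LY2109761 and 13120 to 20430 in fl/fl kidneys given DMSO, so LY2109761 and DMSO libraries overlapped in both genotypes. Cubn (ENSMUSG00000026726, at 13276338 to 13491813 on GRCm38 chromosome 2) encodes cubilin, an endocytic receptor of the brush border, and had 89.5, 112 and 132 CPM in tKO kidneys given LY2109761, against 58.9, 51.7 and 52.3 CPM in tKO kidneys given DMSO. Cubn in fl/fl kidneys had 71.3, 104 and 108 CPM with LY2109761, against 186, 135 and 168 CPM with DMSO. Neither pair overlapped. The response was 1.03 in tKO and −0.79 in fl/fl, a difference of 1.82 (SE 0.27, edgeR adjusted p = 0.0061). Lrp2 (ENSMUSG00000027070, at 69424340 to 69586065 on GRCm38 chromosome 2) encodes megalin, the partner of cubilin, and had 240.1, 326 and 352 CPM in tKO kidneys given LY2109761, against 177, 175 and 188 CPM in tKO kidneys given DMSO. Lrp2 in fl/fl kidneys had 291, 263 and 324 CPM with LY2109761, against 563, 377 and 613 CPM with DMSO. The 2 pairs were again separate and the difference was 1.59 (SE 0.27, edgeR adjusted p = 0.00668). Fbp1 (ENSMUSG00000069805, at 62864753 to 62888282 on GRCm38 chromosome 13), the gluconeogenic fructose-bisphosphatase, had 84.8, 101 and 93.5 CPM in tKO kidneys given LY2109761, against 46.4, 36.2 and 34.2 CPM in tKO kidneys given DMSO. Fbp1 in fl/fl kidneys had 106, 49.6 and 142 CPM with LY2109761, against 269, 172 and 321 CPM with DMSO, and it differed by 2.61 (SE 0.47, edgeR adjusted p = 0.00819). The monocarboxylate transporter gene Slc16a9 differed by 1.61 (SE 0.26, edgeR adjusted p = 0.00649). The phosphate transporter gene Slc34a1 differed by 1.35 (SE 0.31, edgeR adjusted p = 0.0166), with 783, 949 and 724 CPM in tKO kidneys given LY2109761, against 457, 581 and 547 CPM in tKO kidneys given DMSO. Slc34a1 in fl/fl kidneys had 892, 555 and 832 CPM with LY2109761, against 1287, 938 and 1539 CPM with DMSO.

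The count of 13 stayed between 10 and 14 with any 1 library left out, and the calls of Cubn, Lrp2, Fbp1, Slc16a9 and Slc34a1 were kept in all 12 such fits. Other nephron segments had no called gene by edgeR, against 16.6% called over all genes: 0 of 15 genes of Henle's loop and the distal tubule (2 higher at an unadjusted p under 0.05, 1 by DESeq2), 0 of 16 collecting duct genes (2 higher, 0 by DESeq2) and 0 of 12 podocyte genes (1 lower, 1 by DESeq2). Their medians were 0.21, 0.41 and −0.28, the last −0.44 to −0.11 with 1 library left out. The water channel genes Aqp2 (0.33) and Aqp3 (0.56), the salt transporter gene Slc12a1 (−0.57), Umod (0.53) and the slit diaphragm gene Nphs1 (−0.26) did not pass (edgeR adjusted p of at least 0.256).

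**Figure D3:**
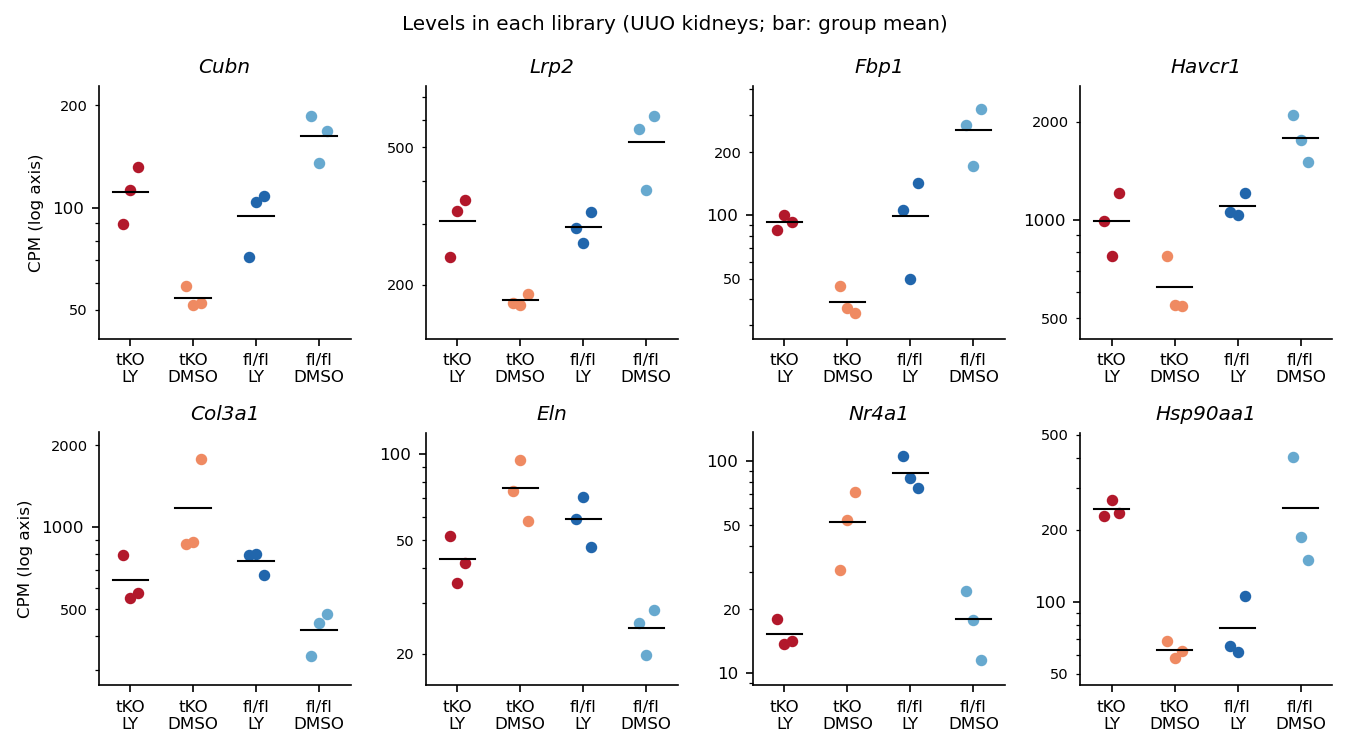
CPM on a log axis in each of the 12 libraries for 8 genes, with a bar at the group mean; LY is LY2109761. Cubn, Lrp2, Fbp1 and Havcr1 are lowest in the 3 libraries of tKO kidneys given DMSO and highest in the 3 libraries of fl/fl kidneys given DMSO, Hsp90aa1 is low in tKO kidneys given DMSO and in fl/fl kidneys given LY2109761 (up to 105 CPM), Col3a1 and Eln have their highest mean in tKO kidneys given DMSO, and Nr4a1 is highest in fl/fl kidneys given LY2109761 (75.2 CPM or more).

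Tubular injury genes passed about as often as all genes (16.6%). Of 26 tested, 1 was called higher and 3 lower (3 and 3 at an unadjusted p under 0.05, 2 and 3 by DESeq2), and the median was 0.0015. Havcr1 (ENSMUSG00000040405, at 46735080 to 46779578 on GRCm38 chromosome 11), the gene of the injury protein KIM-1, had 989.9, 777 and 1207 CPM in tKO kidneys given LY2109761, against 776, 549 and 545 CPM in tKO kidneys given DMSO. Havcr1 in fl/fl kidneys had 1056, 1040 and 1207 CPM with LY2109761, against 2096, 1760 and 1510 CPM with DMSO. It sided with the proximal tubule genes: the tKO groups touched but did not overlap, fl/fl kidneys given DMSO were highest, and the difference was 1.37 (SE 0.28, edgeR adjusted p = 0.0117). S100a6 (ENSMUSG00000001025, at 90612882 to 90624181 on GRCm38 chromosome 3), a calcium-binding protein gene, ran the other way, with 136, 112 and 84.3 CPM in tKO kidneys given LY2109761, against 237, 205 and 189.5 CPM in tKO kidneys given DMSO. S100a6 in fl/fl kidneys had 252, 321 and 181 CPM with LY2109761, against 75.1, 92.3 and 124 CPM with DMSO, a difference of −2.30 (SE 0.35, edgeR adjusted p = 0.0061). The EGF-family ligand gene Areg (−1.80 (SE 0.39, edgeR adjusted p = 0.0151)) and the chemokine gene Cxcl1 (−1.67 (SE 0.40, edgeR adjusted p = 0.0204)) were also lower. The call of Cxcl1 was lost without tKO LY2109761 replicate 2 or fl/fl LY2109761 replicate 3 (adjusted p of edgeR up to 0.0514). The lipocalin gene Lcn2, another injury marker, stood at 0.30 (SE 0.53, edgeR adjusted p = 0.733).

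Fatty acid oxidation, the main fuel use of the proximal tubule, held more calls higher than lower: 7 of 32 genes were called higher (8.43% of all genes) and 1 lower (8.13%) by edgeR (13 and 2 at an unadjusted p under 0.05, 9 and 1 by DESeq2), with a median of 0.51. Hadh (ENSMUSG00000027984, at 131233419 to 131272101 on GRCm38 chromosome 3), a dehydrogenase of β-oxidation, had 184, 235 and 231 CPM in tKO kidneys given LY2109761, against 141, 131 and 121 CPM in tKO kidneys given DMSO. Hadh in fl/fl kidneys had 189, 134 and 178 CPM with LY2109761, against 268, 236 and 247 CPM with DMSO. Both pairs were apart and the difference was 1.31 (SE 0.20, edgeR adjusted p = 0.00627). Hadha, a subunit of the trifunctional protein, differed by 1.07 (SE 0.17, edgeR adjusted p = 0.00627), the electron transfer gene Etfdh by 1.59 (SE 0.29, edgeR adjusted p = 0.00826) and the hydratase gene Echs1 by 0.89 (SE 0.20, edgeR adjusted p = 0.0154). The acyl-CoA dehydrogenase genes Acadl (0.02) and Acadm (0.55) did not pass. The gene called lower was Pdk4, a kinase that shuts off pyruvate dehydrogenase, named after its value was seen. Pdk4 differed by −1.96 (SE 0.51, edgeR adjusted p = 0.0283), a call kept without tKO LY2109761 replicate 3, tKO DMSO replicate 2, fl/fl LY2109761 replicate 1 or fl/fl DMSO replicate 3 and lost without any other single library (adjusted p of edgeR up to 0.0723) or with the replicate number as a block. The count of 7 went to 4 without tKO LY2109761 replicate 2, tKO DMSO replicate 2, fl/fl LY2109761 replicate 1 or 3, or fl/fl DMSO replicate 1.

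Nuclear genes of oxidative phosphorylation went both ways, with 6 of 44 called higher (8.43% of all genes) and 9 lower (8.13%) by edgeR (7 and 14 at an unadjusted p under 0.05, 7 and 10 by DESeq2) and a median of −0.01. Atp5f1b (ENSMUSG00000025393, at 128083273 to 128090391 on GRCm38 chromosome 10), the catalytic β subunit of ATP synthase, had 445, 526 and 607 CPM in tKO kidneys given LY2109761, against 384, 300.2 and 299.6 CPM in tKO kidneys given DMSO. Atp5f1b in fl/fl kidneys had 453, 302 and 622 CPM with LY2109761, against 1048, 859.5 and 1144 CPM with DMSO. It differed by 1.83 (SE 0.33, edgeR adjusted p = 0.00845), the α subunit gene Atp5f1a by 1.25 (SE 0.21, edgeR adjusted p = 0.00686), and the core complex I gene Ndufs1 by 1.07 (SE 0.20, edgeR adjusted p = 0.00904). Ndufa5 (ENSMUSG00000023089, at 24518666 to 24528013 on GRCm38 chromosome 6), an accessory subunit of complex I, had 53.6, 48.5 and 40.5 CPM in tKO kidneys given LY2109761, against 69.8, 71 and 63.3 CPM in tKO kidneys given DMSO. Ndufa5 in fl/fl kidneys had 103, 109.7 and 81.2 CPM with LY2109761, against 47.1, 44.7 and 60.8 CPM with DMSO, a difference of −1.46 (SE 0.23, edgeR adjusted p = 0.0061). The accessory subunit genes Ndufa1 (−0.94) and Ndufa2 (−0.96) were called lower too. The call of Ndufa1 was kept without fl/fl DMSO replicate 3 and lost without any other single library (adjusted p of edgeR up to 0.113), and that of Ndufa2 was kept without fl/fl LY2109761 replicate 1 or fl/fl DMSO replicate 3 and lost without any other single library (adjusted p of edgeR up to 0.114). The genes called higher had the longer transcripts, 3443 to 11134 bases with a median of 6042, against 419 to 5296 bases with a median of 2315 for those called lower. With offsets for GC content and gene length the counts were still 6 and 9. The 6 went to 3 without fl/fl DMSO replicate 1. The 9 went to 3 without fl/fl LY2109761 replicate 3, to 4 without tKO LY2109761 replicate 3, any tKO DMSO library, fl/fl LY2109761 replicate 1 or fl/fl DMSO replicate 1 or 2, and to 5 without fl/fl LY2109761 replicate 4. Of 13 mitochondrially encoded genes 1 was called lower (8.13% of all genes), mt-Nd3 (−1.81 (SE 0.38, edgeR adjusted p = 0.0133)), and 0 higher (8.43%) by edgeR (2 and 0 at an unadjusted p under 0.05, 1 and 0 by DESeq2). mt-Nd1 (−0.71) and mt-Nd2 (−0.75) did not pass.

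Immediate early genes, transcription factors and phosphatases induced within minutes of a stimulus, had the lowest list median after the adipose genes, −1.12. Of 21 tested, 9 were called lower (8.13% of all genes) and 0 higher (8.43%) by edgeR (11 and 0 at an unadjusted p under 0.05, 10 and 0 by DESeq2). Nr4a1 (ENSMUSG00000023034, at 101254269 to 101274795 on GRCm38 chromosome 15), an orphan nuclear receptor gene, had 18, 13.7 and 14.1 CPM in tKO kidneys given LY2109761, against 30.7, 53 and 71.9 CPM in tKO kidneys given DMSO. Nr4a1 in fl/fl kidneys had 107, 83.2 and 75.2 CPM with LY2109761, against 24.6, 17.8 and 11.6 CPM with DMSO. Both pairs were apart, and LY2109761 went with low levels in tKO and with high levels in fl/fl. The response was −1.76 in tKO and 2.30 in fl/fl, a difference of −4.06 (SE 0.46, edgeR adjusted p = 0.0044). Dusp1 (ENSMUSG00000024190, at 26505590 to 26562128 on GRCm38 chromosome 17), which encodes a MAP kinase phosphatase, had 48.2, 42.3 and 59.4 CPM in tKO kidneys given LY2109761, against 56.8, 66.9 and 99.2 CPM in tKO kidneys given DMSO. Dusp1 in fl/fl kidneys had 112, 122 and 139 CPM with LY2109761, against 57.6, 66.3 and 48.7 CPM with DMSO, and it differed by −1.68 (SE 0.30, edgeR adjusted p = 0.00766). Its tKO groups overlapped and its fl/fl groups did not. Ier2 differed by −1.64 (SE 0.29, edgeR adjusted p = 0.00773) and Nr4a2, a relative of Nr4a1, by −2.48 (SE 0.58, edgeR adjusted p = 0.0182). The call of Nr4a2 was lost without tKO LY2109761 replicate 3 (adjusted p of edgeR up to 0.0509). The AP-1 gene Fosb had 2.08, 1.09 and 3.77 CPM in tKO kidneys given LY2109761, against 4.10, 6.98 and 5.36 CPM in tKO kidneys given DMSO. Fosb in fl/fl kidneys had 19.8, 5.76 and 2.98 CPM with LY2109761, against 2.08, 1.81 and 1.45 CPM with DMSO, so 1 fl/fl library given LY2109761 stood above its replicates. The difference was −3.66 (SE 0.90, edgeR adjusted p = 0.0219), from −4.13 to −2.48 with 1 library left out, a call lost without tKO LY2109761 replicate 2 or fl/fl DMSO replicate 1 (adjusted p of edgeR up to 0.0509). Fos had 18.2, 12.7 and 16.6 CPM in tKO kidneys given LY2109761, against 29.1, 17.1 and 51.6 CPM in tKO kidneys given DMSO. Fos in fl/fl kidneys had 48.2, 35.1 and 29.2 CPM with LY2109761, against 28, 14.1 and 11.4 CPM with DMSO. It differed by −2.11 (SE 0.58, edgeR adjusted p = 0.0338), a call kept without tKO LY2109761 replicate 1, tKO DMSO replicate 1 or 2, fl/fl LY2109761 replicate 4 or fl/fl DMSO replicate 1 and lost without any other single library (adjusted p of edgeR up to 0.0801). The list count went to 4 without tKO LY2109761 replicate 2 or 3 and to 5 without tKO DMSO replicate 3 or fl/fl LY2109761 replicate 1 or 3. With offsets for GC content it was 7 and the median −0.72.

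The promoters of 3 of these genes are shown because immediate early genes are classic targets of CREB and ATF factors, which bind the cyclic AMP response element (CRE, TGACGTCA) or its core (TGACG). Sequences are RefSeq promoter windows of GRCm38.p6, 250 bases before to 50 after a transcription start, 5′ to 3′ on the gene's strand. Capitals mark the core in Nr4a1 (read as CGTCA, on the other strand) and Fosb, and the full element in Dusp1.
Nr4a1 promoter, chr15:101266596-101266895, plus strand: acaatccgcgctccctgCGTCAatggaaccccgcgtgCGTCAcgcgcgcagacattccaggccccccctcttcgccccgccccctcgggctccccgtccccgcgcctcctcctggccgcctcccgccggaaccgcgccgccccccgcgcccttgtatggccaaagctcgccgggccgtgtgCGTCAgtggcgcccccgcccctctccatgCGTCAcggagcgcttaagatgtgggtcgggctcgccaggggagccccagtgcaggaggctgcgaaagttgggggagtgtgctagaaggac
Fosb promoter, chr7:19309996-19310295, minus strand: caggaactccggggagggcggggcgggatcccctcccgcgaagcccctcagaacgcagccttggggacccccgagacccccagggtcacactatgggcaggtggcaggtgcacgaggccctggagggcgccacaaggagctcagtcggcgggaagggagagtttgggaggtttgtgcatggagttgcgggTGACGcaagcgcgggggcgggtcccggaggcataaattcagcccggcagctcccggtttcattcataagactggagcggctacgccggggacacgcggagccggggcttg
Dusp1 promoter, chr17:26508423-26508722, minus strand: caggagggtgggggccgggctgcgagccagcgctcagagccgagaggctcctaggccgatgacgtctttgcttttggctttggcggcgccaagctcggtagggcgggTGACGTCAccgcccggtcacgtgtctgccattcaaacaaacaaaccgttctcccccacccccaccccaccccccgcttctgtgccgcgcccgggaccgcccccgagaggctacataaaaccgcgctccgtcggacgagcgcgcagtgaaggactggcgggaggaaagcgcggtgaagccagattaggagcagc

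Nr4a1 held the core 4 times and Fosb 1 time, and Dusp1 held 1 full element, with a further core left in lower case. A window was found for 7 of the 9 genes called lower (Dusp1, Fos, Fosb, Nr4a1, Nr4a2 and, named for the motif after their values were seen, Atf3 and Junb), and all 7 held the core on one strand or the other. Among the 16 tested immediate early genes with a window 10 held it, and among all 27025 genes 23%. Heat shock genes held the core as well, in 7 of 13 with a window and in 3 of the 4 of these called higher, so it was found beside calls of both directions. The full element was in 1 of the 16 and in 2.03% of all genes, and every full element contains a core. The AP-1 motif TGANTCA was in 0 of the 16 and in 8.97% of all genes, and the CArG box was in 2 of the 16 and in 1.81% of all genes. These matches describe the letters in the windows only.

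Of 16 clock genes 1 was called higher and 1 lower, a share near that over all genes, 16.6% (2 and 1 at an unadjusted p under 0.05, 1 and 1 by DESeq2). Per1 (ENSMUSG00000020893, at 69095217 to 69109960 on GRCm38 chromosome 11), a clock gene that is also induced by stimuli, had 24.3, 20.02 and 41.3 CPM in tKO kidneys given LY2109761, against 33.9, 39.5 and 43.7 CPM in tKO kidneys given DMSO. Per1 in fl/fl kidneys had 107, 131 and 142 CPM with LY2109761, against 24.5, 75.3 and 50.2 CPM with DMSO. It was high in the 3 libraries of fl/fl kidneys given LY2109761 and differed by −1.79 (SE 0.51, edgeR adjusted p = 0.0365), a call kept without tKO LY2109761 replicate 3, tKO DMSO replicate 1 or fl/fl DMSO replicate 2 and lost without any other single library (adjusted p of edgeR up to 0.0876) or with GC offsets. Hlf, an output factor of the clock, differed by 1.45 (SE 0.22, edgeR adjusted p = 0.0061) and kept its call without any 1 library. The core genes Bmal1 (0.25) and Clock (1.26) did not pass.

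**Figure D4:**
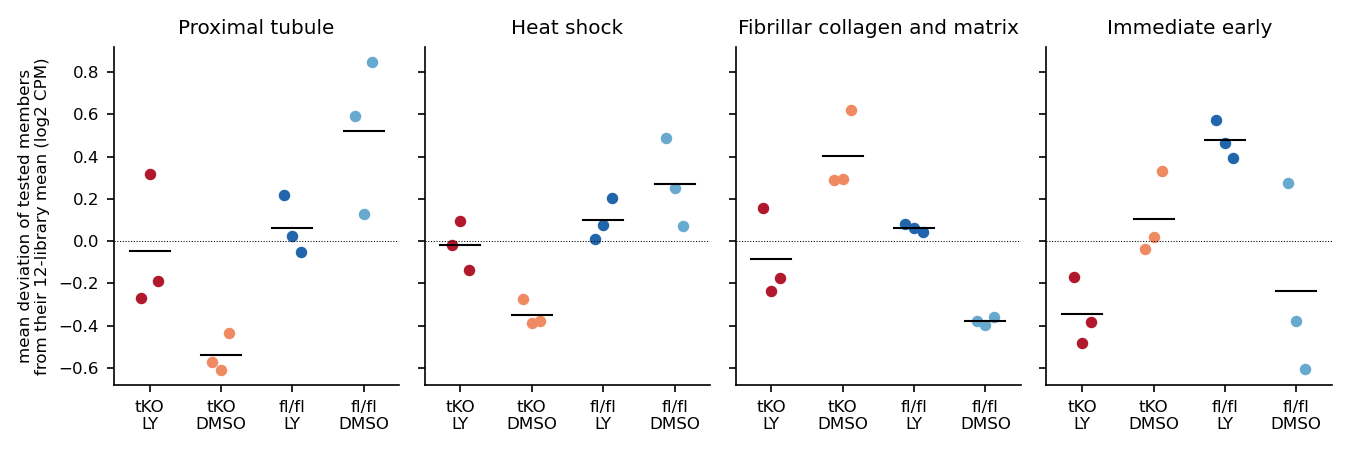
Mean deviation of a list's tested members from their own mean over the 12 libraries, in log2 CPM, for 4 lists; each point is a library, bars are group means and LY is LY2109761. Proximal tubule and heat shock genes sit lowest in all 3 libraries of tKO kidneys given DMSO, matrix genes sit highest there and lowest in fl/fl kidneys given DMSO, and immediate early genes are spread widely within fl/fl kidneys given DMSO.

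Heat shock genes, chaperones that refold damaged protein, were called higher in 6 of 17 cases (8.43% of all genes) and lower in 1 (8.13%) by edgeR (6 and 2 at an unadjusted p under 0.05, 6 and 1 by DESeq2), with a median of 0.42. Hsp90aa1 (ENSMUSG00000021270, at 110690605 to 110702728 on GRCm38 chromosome 12), the inducible HSP90, had 229, 267 and 236 CPM in tKO kidneys given LY2109761, against 68.2, 58.1 and 62.3 CPM in tKO kidneys given DMSO. Hsp90aa1 in fl/fl kidneys had 65.1, 61.7 and 105 CPM with LY2109761, against 403, 188 and 149.6 CPM with DMSO. The tKO groups were far apart, the fl/fl groups were apart as well and in the reverse order, and the response was 1.96 in tKO and −1.67 in fl/fl, a difference of 3.63 (SE 0.47, edgeR adjusted p = 0.00553). The constitutive Hsp90ab1 differed by 0.68 (SE 0.17, edgeR adjusted p = 0.0233), the mitochondrial chaperonin gene Hspd1 by 0.99 (SE 0.20, edgeR adjusted p = 0.0121) and Hspa4l, an HSP110-type exchange factor gene, by 0.91 (SE 0.17, edgeR adjusted p = 0.00826). The classic stress-induced genes Hspa1a (−0.11 (SE 0.49, edgeR adjusted p = 0.905)) and Hspa1b (1.03 (SE 0.51, edgeR adjusted p = 0.185)) did not pass. The count of 6 went to 3 without tKO DMSO replicate 2 or fl/fl DMSO replicate 1, and the call of Hsp90ab1 was lost without tKO DMSO replicate 2 or fl/fl DMSO replicate 1 (adjusted p of edgeR up to 0.0606).

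Heat shock factor binds inverted repeats, searched on both strands as GAA, NN, TTC, NN and GAA in 1 run. It was found in the window of 4 of the 13 tested heat shock genes that have one (Chordc1, Hspd1, Hspe1 and Hsph1) and in 0.662% of all genes. The 3 of them with a called difference are shown with the element in capitals, since they did not move together. Hsph1 and Chordc1 are named for the motif, after their values were seen.
Hsph1 promoter, chr5:149636287-149636586, minus strand: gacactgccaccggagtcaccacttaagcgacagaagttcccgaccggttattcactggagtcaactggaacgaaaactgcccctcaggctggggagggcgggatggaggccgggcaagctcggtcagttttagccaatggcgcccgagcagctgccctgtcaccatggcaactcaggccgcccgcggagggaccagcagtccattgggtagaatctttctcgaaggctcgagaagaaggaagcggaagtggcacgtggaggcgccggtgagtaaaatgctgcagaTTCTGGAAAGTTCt
Hspd1 promoter, chr1:55087883-55088182, minus strand: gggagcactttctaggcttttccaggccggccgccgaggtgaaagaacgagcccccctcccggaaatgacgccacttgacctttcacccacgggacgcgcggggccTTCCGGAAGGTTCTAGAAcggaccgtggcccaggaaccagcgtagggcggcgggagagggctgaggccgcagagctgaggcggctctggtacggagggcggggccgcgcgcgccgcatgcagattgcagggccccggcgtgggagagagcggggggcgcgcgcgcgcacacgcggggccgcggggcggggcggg
Chordc1 promoter, chr9:18292017-18292316, plus strand: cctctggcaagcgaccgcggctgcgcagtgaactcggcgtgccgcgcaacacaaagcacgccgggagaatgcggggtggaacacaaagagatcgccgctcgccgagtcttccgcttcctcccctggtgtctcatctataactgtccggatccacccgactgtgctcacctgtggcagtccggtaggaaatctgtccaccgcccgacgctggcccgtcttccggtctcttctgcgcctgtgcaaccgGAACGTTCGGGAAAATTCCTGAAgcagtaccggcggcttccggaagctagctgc

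Hspd1 held 2 overlapping matches, upstream of the start shown. Chordc1 held 3 overlapping matches at the start itself, with first bases at −4, 1 and 6 from it. The single match in Hsph1 lies after the start. Hspd1 had 129.7, 150 and 133 CPM in tKO kidneys given LY2109761, against 121, 101 and 90.7 CPM in tKO kidneys given DMSO. Hspd1 in fl/fl kidneys had 167, 148 and 195 CPM with LY2109761, against 274, 221 and 273 CPM with DMSO. It was lowest in tKO kidneys given DMSO and highest in fl/fl kidneys given DMSO. Hsph1, an HSP110 gene, differed by 1.28 (SE 0.33, edgeR adjusted p = 0.0267). Chordc1, which encodes an HSP90 co-chaperone, had 63.1, 61.3 and 60.3 CPM in tKO kidneys given LY2109761, against 67.1, 63.8 and 71.8 CPM in tKO kidneys given DMSO. Chordc1 in fl/fl kidneys had 72.4, 84.6 and 69.7 CPM with LY2109761, against 58.7, 48.1 and 55 CPM with DMSO. Its difference ran the other way, −0.62 (SE 0.16, edgeR adjusted p = 0.0254). The call of Chordc1 was lost without tKO LY2109761 replicate 2 or 3, tKO DMSO replicate 3, fl/fl LY2109761 replicate 1 or 3 or fl/fl DMSO replicate 2 (adjusted p of edgeR up to 0.0765), and that of Hsph1 was lost without tKO DMSO replicate 1 or 2, fl/fl LY2109761 replicate 1 or 3 or fl/fl DMSO replicate 1 (adjusted p of edgeR up to 0.0686). Hspe1, which shares its promoter region with Hspd1, stood at −0.28 and did not pass, so genes with the element were found on both sides of 0.

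The calls of the immune lists, and of all lists in the next paragraph, stand against 16.6% over all genes (8.43% higher and 8.13% lower). Of 22 macrophage and monocyte genes 2 were called lower and 0 higher (5 and 0 at an unadjusted p under 0.05, 3 and 0 by DESeq2), with a median of −0.38 (−0.56 to −0.23 with 1 library left out). Cx3cr1 (ENSMUSG00000052336, at 119901616 to 120069879 on GRCm38 chromosome 9), the fractalkine receptor of resident macrophages and monocytes, had 27.5, 22.6 and 23.4 CPM in tKO kidneys given LY2109761, against 42.1, 66.7 and 69.6 CPM in tKO kidneys given DMSO. Cx3cr1 in fl/fl kidneys had 30.2, 29.9 and 29.4 CPM with LY2109761, against 23.3, 24.3 and 16.6 CPM with DMSO. Both pairs were apart, tKO kidneys given DMSO were highest and the difference was −1.76 (SE 0.28, edgeR adjusted p = 0.00645). Gpnmb (−3.26 (SE 0.97, edgeR adjusted p = 0.0432)) had 24.3 CPM in 1 fl/fl library given LY2109761 and at most 6.21 CPM in the other 11, and its call was kept without fl/fl LY2109761 replicate 4 and lost without any other single library (adjusted p of edgeR up to 0.0931). The macrophage markers Adgre1 (−1.21) and Cd68 (−0.52) did not pass. In the interferon response 3 of 26 genes were called higher and 0 lower (4 and 4 at an unadjusted p under 0.05, 3 and 3 by DESeq2). Gbp2 (ENSMUSG00000028270, at 142620602 to 142638008 on GRCm38 chromosome 3), an interferon-induced GTPase gene with 1 named pseudogene, had 52, 73.3 and 105 CPM in tKO kidneys given LY2109761, against 47.5, 45.5 and 31.2 CPM in tKO kidneys given DMSO. Gbp2 in fl/fl kidneys had 33.3, 37.2 and 37.8 CPM with LY2109761, against 85.9, 76.1 and 75.2 CPM with DMSO. It differed by 2.02 (SE 0.33, edgeR adjusted p = 0.00649), and the transcription factor genes Irf1 and Irf9 differed by 1.01 (SE 0.22, edgeR adjusted p = 0.0155) and 1.11 (SE 0.27, edgeR adjusted p = 0.0205). The call of Irf9 was lost without fl/fl DMSO replicate 1 (adjusted p of edgeR up to 0.0561). Ifit1 (0.43) and Ifit2 (−0.41) did not pass.

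Of 24 inflammatory cytokines and NF-κB targets 2 were called lower and 0 higher (5 and 1 at an unadjusted p under 0.05, 5 and 0 by DESeq2), Cxcl1 and the chemokine gene Ccl4 (−1.29 (SE 0.37, edgeR adjusted p = 0.0376)), while Il1b stood at −1.22 (SE 0.39, edgeR adjusted p = 0.0545) and Tnf at 0.80 (SE 0.40, edgeR adjusted p = 0.195). Of 23 T, NK and B cell genes 1 was called lower and 0 higher (3 and 2 at an unadjusted p under 0.05, 2 and 0 by DESeq2), the antibody joining chain gene Jchain (−2.63 (SE 0.79, edgeR adjusted p = 0.0438)), and Cd3d (−0.12) and Cd3e (1.08) did not pass. The call of Ccl4 was kept without tKO LY2109761 replicate 3, tKO DMSO replicate 3, fl/fl LY2109761 replicate 1 or fl/fl DMSO replicate 3 and lost without any other single library (adjusted p of edgeR up to 0.0965), and that of Jchain was kept without fl/fl LY2109761 replicate 1 and lost without any other single library (adjusted p of edgeR up to 0.115). edgeR called 0 of 7 MHC class II genes (1 higher and 1 lower at an unadjusted p under 0.05, 0 by DESeq2), with Cd74 at 0.85 and H2-Aa at −0.26. It called 0 of 5 neutrophil genes tested (1 lower at an unadjusted p under 0.05, 0 by DESeq2), with S100a8 at −1.15 and S100a9 at −1.07. Of 15 endothelial genes 2 were called lower and 0 higher (4 and 0 at an unadjusted p under 0.05, 3 and 0 by DESeq2), the tight junction gene Cldn5 (−1.38 (SE 0.31, edgeR adjusted p = 0.0166)) and Egfl7 (−1.14 (SE 0.23, edgeR adjusted p = 0.0111)), and Cdh5 (−0.23) and Pecam1 (−0.33) did not pass. Of 20 basement membrane genes the laminin gene Lamb2 (−0.88 (SE 0.21, edgeR adjusted p = 0.0211)) was lower (4 lower and 1 higher at an unadjusted p under 0.05, 1 and 0 by DESeq2), a call lost without tKO LY2109761 replicate 2, tKO DMSO replicate 3, fl/fl LY2109761 replicate 3 or fl/fl DMSO replicate 1 (adjusted p of edgeR up to 0.0603). The type IV collagen genes Col4a1 (0.35) and Col4a2 (0.13) did not pass. edgeR called 0 of 33 cell cycle genes (4 higher and 0 lower at an unadjusted p under 0.05, 1 higher by DESeq2), with Mki67 at −0.06 and Top2a at 0.06, and 0 of 7 erythroid genes (1 lower at an unadjusted p under 0.05, 0 by DESeq2), with Hba-a1 at −1.14 and Hba-a2 at −2.04. The urothelial genes Upk1a (−0.27) and Upk1b (−1.36) and the adipocyte gene Cidec (−1.27) did not pass.

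In the pathway of Pcmt1, protein repair and the methyl cycle, 2 of 19 genes were called higher and 2 lower, against 16.6% called over all genes (5 and 2 at an unadjusted p under 0.05, 3 and 2 by DESeq2). Cth, which makes cysteine from cystathionine, differed by 1.17 (SE 0.31, edgeR adjusted p = 0.0306) and Mat2a, which makes the methyl donor S-adenosylmethionine, by 1.73 (SE 0.54, edgeR adjusted p = 0.0491). Pcmtd1 (ENSMUSG00000051285, at 7088920 to 7173628 on GRCm38 chromosome 1), a relative of Pcmt1, had 90.1, 99.6 and 97.4 CPM in tKO kidneys given LY2109761, against 101, 125 and 98.1 CPM in tKO kidneys given DMSO. Pcmtd1 in fl/fl kidneys had 66.1, 91.7 and 69.4 CPM with LY2109761, against 31.8, 57.7 and 26.3 CPM with DMSO. It was lowest in the 3 libraries of fl/fl kidneys given DMSO and differed by −1.15 (SE 0.36, edgeR adjusted p = 0.0493), and Msrb3, which reduces oxidised methionine, by −0.55 (SE 0.17, edgeR adjusted p = 0.0461). The call of Cth was kept without tKO LY2109761 replicate 1, tKO DMSO replicate 1, fl/fl LY2109761 replicate 4 or fl/fl DMSO replicate 2 and lost without any other single library (adjusted p of edgeR up to 0.0767), that of Mat2a was kept without tKO DMSO replicate 3 or fl/fl LY2109761 replicate 4 and lost without any other single library (adjusted p of edgeR up to 0.0999) or with GC offsets, that of Pcmtd1 was kept without fl/fl DMSO replicate 2 and lost without any other single library (adjusted p of edgeR up to 0.133) and that of Msrb3 was kept without tKO LY2109761 replicate 1 or fl/fl DMSO replicate 3 and lost without any other single library (adjusted p of edgeR up to 0.126). Of 11 genes that differ between the sexes in mouse kidney 1 was higher and 1 lower, again near 16.6% (2 and 1 at an unadjusted p under 0.05, 1 and 1 by DESeq2): the amino acid transporter gene Slc7a12 (2.41 (SE 0.59, edgeR adjusted p = 0.0219)) and the Y-linked Eif2s3y (−0.66 (SE 0.17, edgeR adjusted p = 0.027)). The call of Slc7a12 was lost without tKO LY2109761 replicate 3, fl/fl LY2109761 replicate 3 or fl/fl DMSO replicate 1 (adjusted p of edgeR up to 0.0573), and that of Eif2s3y was lost without tKO LY2109761 replicate 2 or 3, tKO DMSO replicate 3, fl/fl LY2109761 replicate 3 or 4 or fl/fl DMSO replicate 1 (adjusted p of edgeR up to 0.0828). Y-linked Ddx3y (−0.16) and Uty (0.47) did not pass, and all 12 libraries held Y-linked transcripts.

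The largest single differences were partly of another kind: in 12 of the 24 genes named for their size (12 in each direction, mean of at least 5 CPM), the replicates of at least 1 group differed by more than 5-fold. The same was true of 772 of 13312 tested genes at that level (5.80%) and of 20 of 2541 with a called difference (0.787%). Among the even ones, Pot1b (ENSMUSG00000024174, at 55651951 to 55712628 on GRCm38 chromosome 17), which encodes a telomere-binding protein, had 22.2, 20.5 and 19.2 CPM in tKO kidneys given LY2109761, against 7.09, 6.50 and 6.42 CPM in tKO kidneys given DMSO. Pot1b in fl/fl kidneys had 2.60, 2.43 and 4.35 CPM with LY2109761, against 14.6, 20.8 and 16 CPM with DMSO. No group overlapped its pair, the response was 1.63 in tKO and −2.44 in fl/fl, and the difference was 4.07 (SE 0.32, edgeR adjusted p = 0.00131). Stim1 (ENSMUSG00000030987, at 102267806 to 102437319 on GRCm38 chromosome 7), the calcium sensor of the endoplasmic reticulum, had 10.02, 14.6 and 15.3 CPM in tKO kidneys given LY2109761, against 6.38, 5.53 and 4.36 CPM in tKO kidneys given DMSO. Stim1 in fl/fl kidneys had 2.22, 2.35 and 2.80 CPM with LY2109761, against 10.6, 13.7 and 10.8 CPM with DMSO, a difference of 3.54 (SE 0.31, edgeR adjusted p = 0.00142). Ttll12 (ENSMUSG00000016757, at 83575090 to 83595157 on GRCm38 chromosome 15), a gene of the tubulin tyrosine ligase family, stood out in 1 group alone, with 4.46, 6.37 and 6.28 CPM in tKO kidneys given LY2109761, against 3.75, 2.69 and 3.46 CPM in tKO kidneys given DMSO. Ttll12 in fl/fl kidneys had 2.41, 2.92 and 5.78 CPM with LY2109761, against 42.9, 41.2 and 34.5 CPM with DMSO, a difference of 4.20 (SE 0.43, edgeR adjusted p = 0.00269). Eeig2 (ENSMUSG00000040339, at 108970997 to 109027607 on GRCm38 chromosome 3) was near 0 in 1 group, with 0.927, 0.789 and 1.12 CPM in tKO kidneys given LY2109761, against 45, 39 and 41.3 CPM in tKO kidneys given DMSO. Eeig2 in fl/fl kidneys had 38.8, 39.4 and 35.6 CPM with LY2109761, against 47.4, 14.7 and 34.4 CPM with DMSO. It fell by 5.46 on the log2 scale with LY2109761 in tKO, against a response of 0.24 in fl/fl, a difference of −5.70 (SE 0.50, edgeR adjusted p = 0.00142). These 4 genes kept their calls under all settings tried.

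Replicates also stayed within 5-fold of each other in Gadd45g (−2.68), a stress and growth arrest gene, the dendritic cell factor gene Batf3 (−2.68), the adhesion receptor gene Adgrg1 (4.66), the phosphatase subunit gene Ppp1cc (−3.40) and the ribosomal RNA locus Rn18s-rs5 (−3.85), beside Nr4a1, Hsp90aa1 and Lum above. The uneven ones were Derpc (9.79), Lrrc19 (6.39), Srcap (5.54), Cckar (4.97), Tfdp2 (4.37), Gpx3 (4.10) and Ttpal (3.92) on the high side, and Golm2 (−5.12), Nek7 (−4.87), Sumo2 (−4.29), Meg3 (−3.87) and Igfbp6 (−3.19) on the low side. Derpc, for example, had 8.11, 0.121 and 108 CPM in tKO kidneys given LY2109761, against 0.101, 0.0537 and 0.168 CPM in tKO kidneys given DMSO. Derpc in fl/fl kidneys had 0.127, 0.243 and 0.238 CPM with LY2109761, against 0.426, 0.662 and 0.529 CPM with DMSO, so 2 libraries of 1 group held nearly all of its counts. Nek7, a mitotic kinase gene, had 10.9, 11.8 and 8.32 CPM in tKO kidneys given LY2109761, against 5.01, 96.8 and 78 CPM in tKO kidneys given DMSO. Nek7 in fl/fl kidneys had 101, 81.5 and 5.42 CPM with LY2109761, against 13.2, 12.6 and 11.5 CPM with DMSO, with a single library far below its replicates in 2 groups. Derpc, Nek7, Cckar, Ttpal, Tfdp2, Sumo2 and Igfbp6 lost their calls without 1 library or another, and Golm2, Gpx3, Lrrc19, Srcap and Meg3 kept theirs in those fits. Golm2 and Srcap lost them with limma voom, Gpx3 with all 18 libraries and Lrrc19 with log2 Xist as a covariate. The call of Derpc was kept without any tKO LY2109761 library or fl/fl LY2109761 replicate 4 and lost without any other single library (adjusted p of edgeR up to 0.0689). The call of Nek7 was kept without tKO DMSO replicate 1 or fl/fl LY2109761 replicate 4 and lost without any other single library (adjusted p of edgeR up to 0.0903). The call of Cckar was kept without tKO DMSO replicate 2 or 3 or fl/fl LY2109761 replicate 1 and lost without any other single library (adjusted p of edgeR up to 0.0883). The call of Ttpal was kept without tKO LY2109761 replicate 3 or fl/fl DMSO replicate 1 and lost without any other single library (adjusted p of edgeR up to 0.0864). The call of Tfdp2 was lost without any tKO DMSO library, fl/fl LY2109761 replicate 1 or 3 or fl/fl DMSO replicate 1 (adjusted p of edgeR up to 0.0697). The call of Sumo2 was lost without tKO LY2109761 replicate 2, tKO DMSO replicate 2, fl/fl LY2109761 replicate 3 or fl/fl DMSO replicate 1 (adjusted p of edgeR up to 0.0615). The call of Igfbp6 was lost without tKO LY2109761 replicate 2 or 3, fl/fl LY2109761 replicate 1 or 3 or fl/fl DMSO replicate 1 (adjusted p of edgeR up to 0.0639). The loci of Derpc, Lrrc19, Srcap and Meg3 overlap other counted loci, which makes their counts uncertain.

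The difference also moved with base composition. Protein-coding genes were set in 4 groups of equal size by GC content. The group of the highest content (54.6% to 72.8%) had a median difference of −0.30, with 143 genes called higher and 492 lower, and the group of the lowest content (31% to 44.9%) a median of 0.12, with 363 higher and 191 lower. The median level of GC-rich minus GC-poor genes, relative to the mean of the 12 libraries on the log2 scale, was −0.0071, −0.25 and −0.40 in tKO kidneys given LY2109761 and −0.0021, 0.10 and 0.15 in tKO kidneys given DMSO. It was 0.13, 0.13 and 0.03 in fl/fl kidneys given LY2109761 and −0.03, 0.0045 and 0.03 in fl/fl kidneys given DMSO, so tKO LY2109761 replicates 2 and 3 stood apart. With offsets for GC content 1618 genes were higher and 1200 lower. Matrix genes were then lower in 8 cases with a median of −0.75, and proximal tubule genes higher in 14 with a median of 0.97. Pseudogenes of any kind made up 18.8% of the genes called higher and 11.6% of those called lower, against 7.47% of all genes tested. For lncRNA genes the shares were 3.19% and 12.1%, against 9.81%. Loci that overlap another counted locus made up 40.2% of the genes called higher and 45.9% of those called lower, against 43% of all. The strand setting of the counting is not given in the sources used here, so reads of such loci cannot be told apart, and their values are uncertain. Among the genes with a called difference that are named above this holds for Atp5f1a, Atp5f1b, Col1a2, Col3a1, Cth, Cubn, Cx3cr1, Derpc, Dpt, Dusp1, Echs1, Egfl7, Eln, Etfdh, Fn1, Gys1, Hadha, Hspd1, Irf1, Irf9, Junb, Lrrc19, Mat2a, Meg3, Msrb3, Ndufa2, Ndufs1, Nr4a1, Pcmtd1, Ppp1cc, Slc16a9, Slc34a1, Srcap and Ywhaq. Hspd1 has 5 named pseudogenes and Gbp2 1, which can also share reads. With pseudogenes and overlapping loci left out before the fit, 788 genes were higher and 557 lower of 9855 tested.

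**Figure D5:**
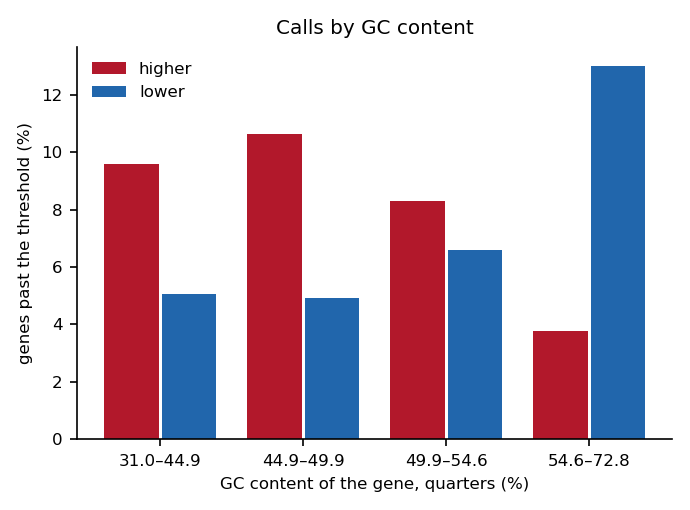
Share of tested protein-coding genes called higher (red) or lower (blue) in each of 4 equal groups by gene GC content, as percentages. Calls higher outnumber calls lower in the 3 groups below 54.6% GC, and in the highest group the order turns, with 3.79% higher and 13% lower.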

How the data were processed

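RNA sequencing of 12 libraries from obstructed mouse kidneys was analysed: 3 libraries each of Pcmt1 tKO with LY2109761, Pcmt1 tKO with DMSO, Pcmt1 fl/fl with LY2109761 and Pcmt1 fl/fl with DMSO, grouped by their labels. Libraries came from 2 µg of total RNA with an mRNA kit, per the labels' protocols. Raw read counts per gene were deposited by the authors. The submitters' processing notes list StringTie, HISAT2 and fastp without versions, and GRCm38 (mm10) among the builds. The counter, annotation and strand setting are not given in the sources used here. FPKM values deposited by the authors beside the counts served only to recover gene lengths.

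Counts were tested with edgeR 4.0.16 (R 4.3.3): TMM scaling, filterByExpr (18971 of 57180 genes kept), means of 4 groups, 8 residual degrees of freedom, quasi-likelihood tests and Benjamini-Hochberg adjustment over all genes tested with a threshold of 0.05. The biological coefficient of variation was 0.28. CPM are counts over the TMM-scaled library size, SE is the size of the log2 difference over the root of F, and fold changes carry edgeR's prior count. DESeq2 1.42.0 and limma 3.58.1 were alternatives, with other scalings, filters, covariates and left-out libraries. The fit was also run on simulated counts with independent noise and no shifts of whole libraries, and no result here rests on that run. The mitochondrial share was compared by an exact permutation test of drug labels within genotype, which assumes no drug effect in either genotype.

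Named genes were Pcmt1 and 7 pathway genes, the 12 largest called differences each way with a mean of at least 5 CPM and a proper symbol, and from each list up to 4 called members and the first 2 in order, of which some are not reported here. The members and the gene lists were chosen with earlier results of these data known. Loci in the deposited table were identical to GENCODE M21 (GRCm38) for 1396 genes, so coordinates and GC content were taken from GENCODE M21 by Ensembl ID (51884 IDs found). Promoter windows are RefSeq's.

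Depth was 13015669 to 19340017 counts, and p-values rest on the spread among 3 libraries a group. Chi-square per gene between replicates was 31.5 to 64.6, so no library was a copy of another. The labels give no batch. Correlations between libraries showed no pairing by replicate number, and the labels do not say whether a number marks a shared animal or day. Sham groups, cell line and whole-kidney knockout samples were not used here.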

Additional observations from a re-analysis of the deposited data

Results flagged for a closer look

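The results below are differences between tKO and fl/fl in the response of obstructed kidneys to LY2109761 that passed edgeR's test of the difference itself, at an adjusted p under 0.05. Over all genes tested, 1599 were higher and 1543 lower. Values are differences of log2 changes, the tKO response minus the fl/fl response, and a negative value means a lower response in tKO. Each library was left out in turn.

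These genes passed the threshold also without any 1 of the 12 libraries. Among them Cldn5, Col3a1, Echs1, Lrrc19 and Vim lost their calls with log2 Xist as a covariate, Golm2 and Srcap lost their calls with limma voom, Gpx3 lost its call with all 18 libraries and Slc34a1 lost its call with the replicate block. Among matrix, myofibroblast and TGF-β target genes the differences were Col1a2 −1.14, Col3a1 −1.72, Des −0.96, Dpt −2.33, Eln −2.08, Fbln1 −1.13, Id3 −1.20, Lum −3.00 and Vim −1.24. For proximal tubule and tubular injury genes the differences were Areg −1.80, Cubn 1.82, Fbp1 2.61, Havcr1 1.37, Lrp2 1.59, S100a6 −2.30, Slc16a9 1.61 and Slc34a1 1.35. In genes of fatty acid oxidation and the respiratory chain the differences were Atp5f1a 1.25, Atp5f1b 1.83, Echs1 0.89, Etfdh 1.59, Hadh 1.31, Hadha 1.07, Ndufa5 −1.46, Ndufs1 1.07 and mt-Nd3 −1.81. Among immediate early and clock genes the differences were Dusp1 −1.68, Hlf 1.45, Ier2 −1.64 and Nr4a1 −4.06. For heat shock genes the differences were Hsp90aa1 3.63, Hspa4l 0.91 and Hspd1 0.99. In immune, endothelial and adipose genes the differences were Cldn5 −1.38, Cx3cr1 −1.76, Egfl7 −1.14, Fabp4 −1.74, Gbp2 2.02 and Irf1 1.01. Among other genes the differences were Adgrg1 4.66, Batf3 −2.68, Clcn3 2.32, Eeig2 −5.70, Gadd45g −2.68, Golm2 −5.12, Gpx3 4.10, Gys1 2.12 and Lrrc19 6.39. For further other genes the differences were Meg3 −3.87, Pot1b 4.07, Ppp1cc −3.40, Rn18s-rs5 −3.85, Srcap 5.54, Stim1 3.54, Ttll12 4.20 and Ywhaq −1.75.

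The calls of the following genes were lost without at least 1 library, with the sign unchanged. Among matrix, myofibroblast and TGF-β target genes the differences were Col1a1 −1.19, Fn1 −0.78, Foxd1 −1.59, Itgav 1.78 and Lamb2 −0.88. For proximal tubule and tubular injury genes the difference was Cxcl1 −1.67. In genes of fatty acid oxidation and the respiratory chain the differences were Ndufa1 −0.94, Ndufa2 −0.96 and Pdk4 −1.96. Among immediate early and clock genes the differences were Fos −2.11, Fosb −3.66, Nr4a2 −2.48 and Per1 −1.79. For heat shock genes the differences were Chordc1 −0.62, Hsp90ab1 0.68 and Hsph1 1.28. In immune, endothelial and adipose genes the differences were Ccl4 −1.29, Gpnmb −3.26, Irf9 1.11 and Jchain −2.63. Among protein repair, methyl cycle and sex-differing genes the differences were Cth 1.17, Eif2s3y −0.66, Mat2a 1.73, Msrb3 −0.55, Pcmtd1 −1.15 and Slc7a12 2.41. For other genes the differences were Cckar 4.97, Derpc 9.79, Igfbp6 −3.19, Nek7 −4.87, Sumo2 −4.29, Tfdp2 4.37 and Ttpal 3.92.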

How the results depend on the processing

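The sign of each of the 3142 called differences held under all settings in which the gene had a value, while the counts moved. These genes were chosen by their difference in the same libraries, which favours an unchanged sign. Genes higher numbered 1599 as reported, 725 with log2 Xist as a covariate (it ranged over 2.7), 788 of 9855 tested without pseudogenes and overlapping loci, and 785 to 2017 with 1 library left out. Genes lower numbered 1543 as reported, 841 with no filter on low counts, 706 with Xist, 557 without pseudogenes and overlapping loci, and 653 to 1751 with 1 library left out. RLE size factors gave 1712 and 1431, column totals 1413 and 1254, DESeq2 2142 and 1885, limma voom with quality weights 1991 and 2047, all 18 libraries 1357 and 1309, counts without mitochondrial genes 1613 and 1556, GC offsets 1618 and 1200, and GC and length offsets 1668 and 1208. GC, length, pseudogene and overlap settings were chosen after seeing the data. Xist itself was low, from 0.125 CPM in fl/fl DMSO replicate 2 to 0.779 CPM in tKO DMSO replicate 3. The Xist covariate therefore rests on few counts. All 12 libraries held Y-linked transcripts, and whether sex played a part in the calls lost with this covariate was not tested. The replicate block gave 1128 higher and 917 lower, 2 calls in tKO and 431 in fl/fl. Deviations of same-numbered libraries correlated at −0.137 to 0.0878, others at −0.161 to 0.174, which showed no pairing by number. With 3 libraries a group, this check cannot decide whether a number marks a shared animal or day. The share of calls that were higher was 50.9% as reported and 48.6% to 60.5% elsewhere. Calls of the tKO response were 4 as reported, 1113 by DESeq2, 33 with all 18 libraries, 9 with GC and length offsets and 2 to 436 with 1 library left out. Calls of the fl/fl response were 1249 as reported, 595 without the filter, 2436 by DESeq2, 2639 by voom, 97 with Xist, 404 without pseudogenes and overlapping loci and 9 to 1694 with 1 library left out. The difference in mitochondrial share stayed below 0, from −4.25 to −0.744 with 1 library left out. Of 83 named genes with a call 53 kept it without any 1 library, 47 under all other settings and 44 under both. With no filter on low counts Cckar, Ccl4, Chordc1, Col1a1, Eif2s3y, Fn1, Fos, Foxd1, Gpnmb, Jchain, Mat2a, Msrb3, Ndufa1, Ndufa2, Nek7, Pcmtd1 and Per1 lost their calls. With the replicate block Cckar, Ccl4, Chordc1, Col1a1, Cxcl1, Derpc, Eif2s3y, Fn1, Fos, Foxd1, Hsph1, Irf9, Jchain, Lamb2, Msrb3, Ndufa1, Ndufa2, Pdk4, Per1, Sumo2, Tfdp2 and Ttpal lost their calls. With log2 Xist as a covariate Cckar, Ccl4, Chordc1, Col1a1, Cxcl1, Derpc, Eif2s3y, Fn1, Fos, Foxd1, Gpnmb, Irf9, Itgav, Jchain, Lamb2, Msrb3, Ndufa1, Ndufa2, Nek7, Nr4a2, Pdk4, Per1, Slc7a12, Tfdp2 and Ttpal lost their calls. With all 18 libraries Ccl4, Chordc1, Cxcl1, Eif2s3y, Fn1, Fos, Hsp90ab1, Itgav, Mat2a, Msrb3, Nek7, Nr4a2, Pcmtd1 and Ttpal lost their calls. With column totals Col1a1, Msrb3, Ndufa1 and Pcmtd1 lost their calls. With GC offsets Col1a1, Mat2a and Per1 lost their calls. With GC and length offsets Col1a1, Fn1, Mat2a and Per1 lost their calls. With pseudogenes and overlapping loci left out Col1a1, Gpnmb, Jchain and Ndufa1 lost their calls. With limma voom Derpc, Golm2, Gpnmb, Jchain, Nek7, Srcap, Tfdp2 and Ttpal lost their calls. Cldn5, Col3a1, Echs1, Lrrc19 and Vim also lost their calls with log2 Xist as a covariate. So did Gpx3 with all 18 libraries and Slc34a1 with the replicate block. With RLE size factors Msrb3 and Pcmtd1 lost their calls. Signs turned for genes that had not passed. With GC offsets the values were Acadl −0.10, Hspa1a 0.25, Tgfb1 0.0063 and Top2a −0.064. With GC and length offsets the values were Acadl −0.073, Hspa1a 0.26, Tgfb1 0.00045 and Top2a −0.077. With log2 Xist as a covariate the values were Cdh5 0.17, Hspa1a 0.072, Mki67 0.0042, Smad3 0.047, Tgfbr1 −0.16 and Top2a −0.031. With the replicate number as a block the values were Smad3 0.051 and Top2a −0.0047. With limma voom with quality weights the values were Tgfb1 0.014, Top2a −0.029 and Upk1a 0.087. Ranges with 1 library left out that cross 0 were Acadl −0.10 to 0.14, Adgre1 −1.63 to 0.53, Aqp2 −0.82 to 0.80, Bmal1 −0.034 to 0.52, Cd3d −0.34 to 0.045, Cdh5 −0.45 to 0.24, Hspa1a −0.61 to 0.26, Ifit2 −0.84 to 0.18, Lcn2 −0.088 to 0.84, Mki67 −0.30 to 0.19, Smad3 −0.29 to 0.094, Tgfb1 −0.16 to 0.14, Tgfbr1 −0.40 to 0.65, Top2a −0.074 to 0.28 and Upk1a −0.68 to 0.54. The cause of these shifts was not tested. With 3 libraries a group, 1 library can decide a call, and genes of low CPM are known least precisely.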
